A study of Mus musculus with 6 samples.

Results

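The Krüppel-like factors described here are 10 zinc-finger transcription factor genes, Klf1, Klf2, Klf3, Klf4, Klf6, Klf7, Klf9, Klf10, Klf12 and Klf13, found by gene name among the 55401 genes of the deposited table, in which 17 gene names begin with Klf. Leukaemic bone marrow cells were taken from 6 mice that carried secondary transplants of a leukaemia dependent on Hoxa9 and Meis1. Lym libraries came from mice 62, 63 and 87, which had received lymphoid leukaemia cells and gave lymphoid cells, and Lin- libraries from mice 56, 57 and 91, which had received lineage-negative, Kit-positive progenitor cells and gave the same. All 6 mice thus share the Hoxa9 and Meis1 leukaemia. Each mouse gave 1 library, and the strain, the age, and the way Hoxa9 and Meis1 were introduced are not given in the sources used here. The comparison is Lym minus Lin-, 2 populations that each carry the leukaemia on in a new host. Unless said otherwise, values are normalized counts, listed for mice 62, 63 and 87 (Lym) and then for mice 56, 57 and 91 (Lin-).

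Proteins of this family share a cluster of zinc fingers at the C-terminal end and bind GC-rich sites and CACCC boxes, while their N-terminal parts differ and recruit activators or repressors. In blood, Klf1 drives the erythroid program, Klf2 keeps lymphocytes quiescent and guides their traffic, and Klf4 takes part in monocyte differentiation. Klf3 and Klf12 are repressors that recruit the corepressor CtBP, and Klf9, Klf10, Klf13 and their relatives can recruit Sin3A.

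Libraries held 18537700 to 22634286 recovered reads, and 3 reads, taken as the floor for a level that differs from 0, equal a normalized count of 2.64 to 3.36 (counting error only). On the first principal component of the 500 most variable genes Lym mice 62 and 63 lay at -52.5 and -32.9, and Lym mouse 87, at 26.4, lay within the Lin- range of 3.86 to 36.4. Reads fell on 24027 and 23836 genes in Lym mice 63 and 87 and on 19427 to 20358 genes in the other libraries. The lymphoid label was checked against B cell markers. Pax5 and Cd79a, chosen after their values were seen, reached at most 0.953 and 4.48 normalized counts in any library. Cd79b, the most abundant of these markers, was at 255, 28.0 and 244 (Lym) and 414, 45.8 and 284 (Lin-). Kit, which defines the Lin- cells, was at 18902, 12027 and 3158 (Lym) and 4953, 6066 and 3420.2 (Lin-). Summed markers of other cells ran in Lym and Lin- from 102 to 1082 and from 50.03 to 78.2 CPM for mast cells and basophils, from 2360.3 to 2679 and from 3002 to 6156 CPM for neutrophils, from 329 to 448 and from 251 to 303 CPM for the endothelial list, and from 2439.6 to 3653 and from 1860.4 to 2503 CPM for progenitors. The neutrophil sum was nearly all Mpo and Elane, granule genes that myeloid progenitors also express, while Ngp, Ltf, Camp, S100a8 and S100a9 reached at most 37.1 normalized counts in any library. The endothelial sum was nearly all Pecam1, with Cdh5, Kdr and Emcn at 0 in every Lin- library and at most 4.76 in Lym. B cell markers summed to 2.10 to 16.01 and 2.43 to 21.0 CPM, megakaryocyte markers to 2.30 to 26.3 and 0.901 to 2.36 CPM, T cell markers to 0.422 to 6.57 and 0.133 to 0.446 CPM, and NK cell markers to 0.844 to 10.7 and 0 to 0.937 CPM. Erythroid markers, with Hba-a1 and Hbb-bs among those at 0, stayed at or below 0.267 CPM and stromal markers at or below 1.19 CPM. Their part in the Klf values was not tested. These are bulk samples, in which fewer cells of a type and less RNA per cell cannot be told apart.

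Klf13 and Klf2 were the most abundant family members per length, and Klf1 and Klf12 lay at or near the floor. In TPM, a level scaled to gene length and library, the median over the 6 libraries was 51.6 for Klf13 (45.1 to 67.9), 32.0 for Klf2 (10.9 to 49.3), 15.9 for Klf10 (12.1 to 18.6), 12.7 for Klf6 (9.07 to 17.3) and 4.84 for Klf7 (4.14 to 8.65). Lower levels were those of Klf3 at 1.81 TPM (0.465 to 4.21), Klf9 at 1.36 TPM (0 to 4.39) and Klf4 at 0.965 TPM (0.539 to 3.24). Klf1 was at 0.171 TPM (0.0483 to 0.971) and Klf12 at 0.013 TPM (0 to 0.12). Klf13 lay above Klf2 in 6 of 6 libraries although their ranges overlapped, Klf2 above Klf10 in 5, and Klf10 above Klf6 in 4. Among the rarer members the order did not hold across libraries, with Klf3 above Klf9 in 3 of 6 and Klf9 above Klf4 in 3 of 6. Together Klf13 and Klf2 made up 60.3% to 73.5% of the summed TPM of the 10 members.

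**Figure D1:**
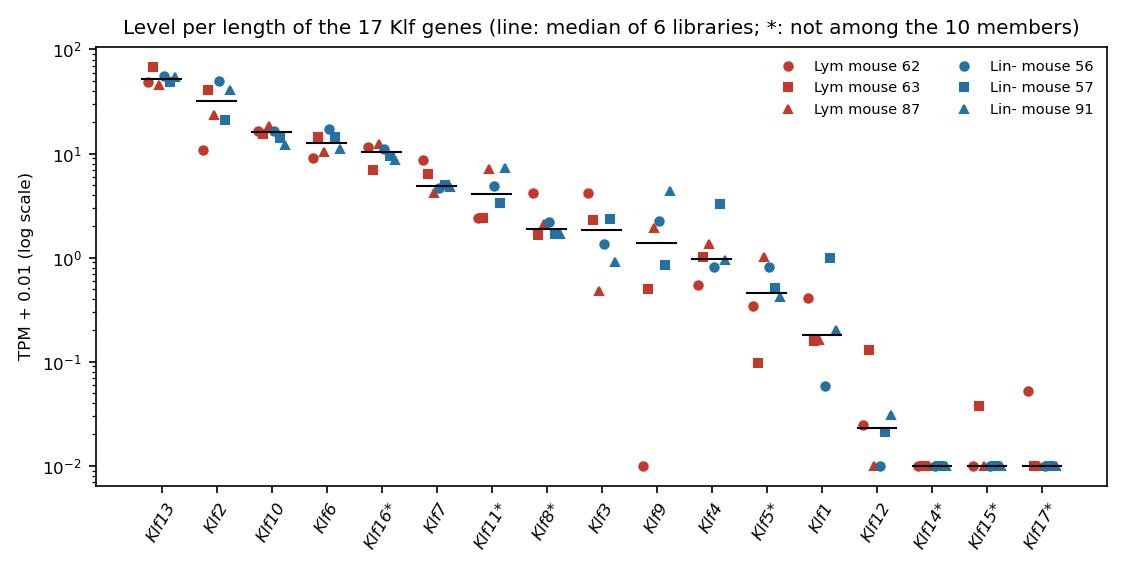
Levels per length (TPM + 0.01, log scale) of all 17 Klf genes in each library, ordered by the median over 6 libraries (line); red is Lym, blue is Lin-, and an asterisk marks genes outside the 10 members. Klf13 has the highest median at 51.6 TPM, and the lowest drawn points stand for 0.

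Of the 10 members, 8 passed the filter on low values, and limma called 0 of these 8 at an adjusted p of 0.05, with 0% of the 14273 genes tested called. An unadjusted p under 0.05 was reached by 0 members, against 10.2% of all genes in limma (1459), 10.1% in edgeR, 9.54% in limma-voom and 5.93% in DESeq2, each again with 0 members. Past the adjusted threshold the count of members was 0 in edgeR and limma-voom, which called 0% of all genes, 0 in DESeq2, which called 1.39% of 16268 genes, and 0 in limma with library weights, which called 4.62%. The authors' deposited table, with 0.32% of its genes called, gives an adjusted p of 0.964 for each of the 10 members. The value ranges of the groups overlapped in 8 of 8 tested members, and they were apart in 15.6% of all genes tested. With so few members these shares cannot be told apart. The fitted log2 difference was above 0 in 4 members and below 0 in 4, with a median of -0.15 beside -0.01 over all genes tested, of which 48.7% lay above 0. With 3 mice a group these fits do not show that the levels are alike, and the 95% intervals below give the differences they leave possible.

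**Figure D2:**
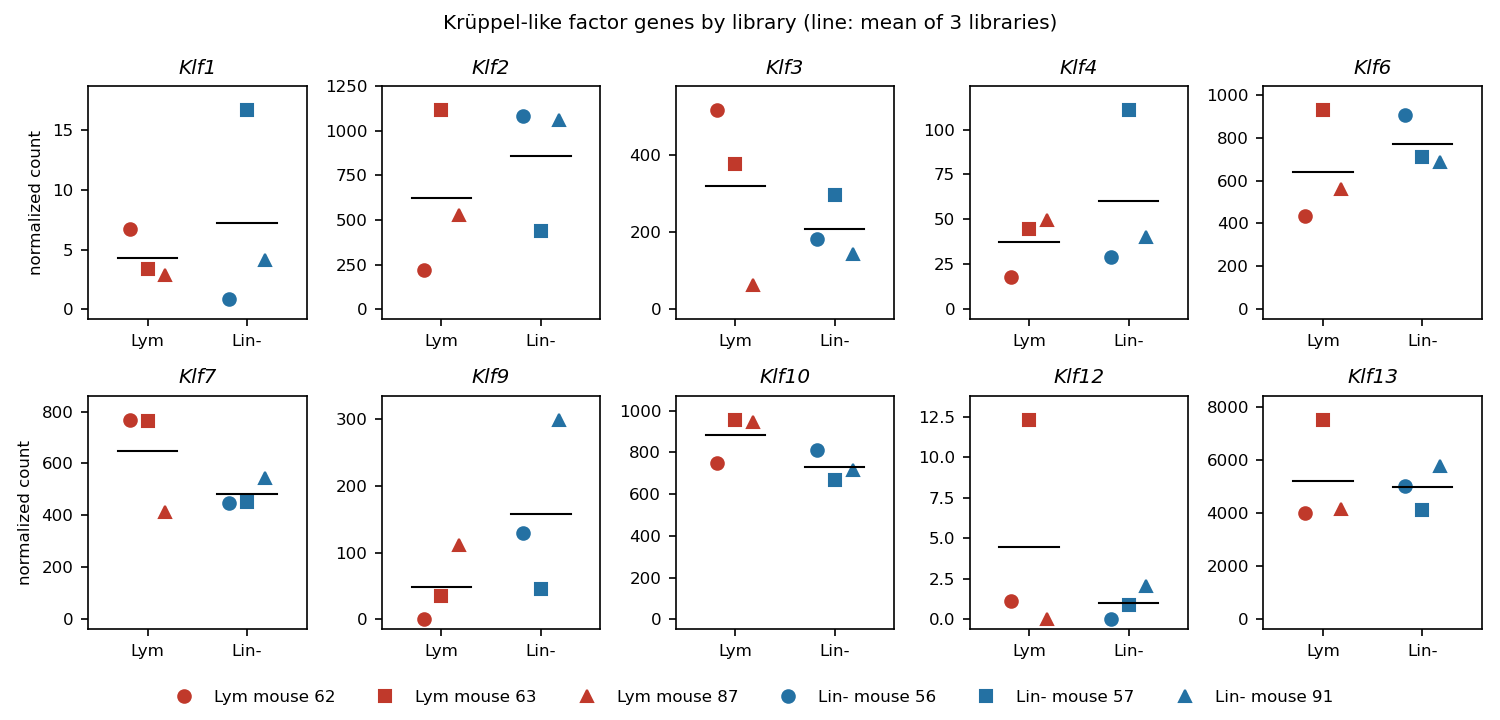
Normalized counts of the 10 members in each library, with symbols for mice and lines for the mean of 3 libraries; each panel has its own linear axis. Lym and Lin- points overlap in all 10 panels, and Klf9 is at 0 in Lym mouse 62.

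Klf13 (chromosome 7, 63886351 to 63938915 in GRCm38, minus strand) binds GC-rich promoters and is known in mouse T cells as an activator of the chemokine gene Ccl5. Klf13 was the most abundant member in both groups. Its normalized counts were 4017, 7522 and 4150.5 (Lym) and 5016, 4113 and 5796 (Lin-). Lym mouse 63 stood above the other 5 libraries, which lay within a narrow band. The means were 5230 ± 1986 against 4975 ± 842 (SD, n = 3 each), with a log2 difference of 0.02 ± 0.24 (SE, 95% interval -0.53 to 0.58, limma adjusted p = 0.981), and the sign turned to -0.27 without Lym mouse 63 and to -0.11 without Lin- mouse 57.

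Klf10 (chromosome 15, 38291463 to 38300706, minus strand), a repressor first found as an early gene induced by TGF-beta, was the least variable member. It was at 750.3, 957 and 948 (Lym) and 813, 666 and 718 (Lin-). Lym mice 63 and 87 lay above the Lin- libraries, and Lym mouse 62 lay among them. The log2 difference was 0.27 ± 0.16 (SE, 95% interval -0.09 to 0.63, limma adjusted p = 0.569). Its SD over the 6 libraries was 0.21 on the log2 scale, below the median of 0.32 over all genes tested, and it was the only one of the 8 below that median. The list of TGF-beta pathway genes had 7 of 7 tested genes higher in Lym by fitted difference (median 0.29) with none past the threshold. Tgfb1, its most abundant gene, was at 8704, 8538 and 8816 (Lym) against 7153, 7323 and 8286 (Lin-). Tgfbr1, a receptor kinase, was at 2087, 1724 and 1140 (Lym) against 1383, 1501 and 1340 (Lin-). Lym mouse 87 was the lowest of the 6 libraries for Tgfbr1, as for all other genes of the list except Tgfb1 (Tgfbr2, Smad2, Smad3, Smad4 and Smad7).

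Klf2, the lymphocyte quiescence factor (chromosome 8, 72319033 to 72321656, plus strand), split the libraries across the groups. Its normalized counts were 219.8, 1117 and 526 (Lym) and 1084, 437 and 1062 (Lin-). Lym mouse 63 was level with Lin- mice 56 and 91, and Lym mouse 87 was closest to Lin- mouse 57, so the lowest and the highest library were both Lym. The log2 difference was -0.65 ± 0.57 (SE, 95% interval -1.94 to 0.64, limma adjusted p = 0.690), and it was -0.05 without Lym mouse 62, -1.22 without Lym mouse 63 and -1.08 without Lin- mouse 57. Of 7 genes known as Klf2 targets, 3 were tested and none passed, 2 higher and 1 lower in Lym (median 0.26). Itgb7, an integrin chain of gut homing, was at 2252, 3485 and 1969 (Lym) against 1660, 1476 and 1996 (Lin-). S1pr1, the egress receptor that Klf2 activates in T cells and chosen after its values were seen, had 1 read, in Lym mouse 87, and 0 in the other libraries.

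The ERK5 kinase and MEF2 factors act upstream of Klf2 in endothelial cells, and 6 of 7 tested genes of that list were higher in Lym by fitted difference (median 0.29) with none past the threshold. Mef2d was at 8277, 8418 and 7930 (Lym) against 6239, 6477 and 7380 (Lin-), so its groups were apart. Mef2c, a factor of lymphoid and myeloid progenitors, was at 5734, 5605 and 3911 against 4117, 4097 and 3641, with Lym mouse 87 inside the Lin- range. Without that mouse Mef2c passed at a log2 difference of 0.52 (limma adjusted p = 0.0207), as did Mef2a and Map3k2 of the list, where limma called 9.57% of all genes. Leaving out the library that lies with the other group favours calls, so this is no separate support.

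Klf6, a widely expressed activator (chromosome 13, 5861482 to 5870394, plus strand), was at 435, 929 and 558 (Lym) and 906, 711 and 687 (Lin-). As with Klf2, Lym mouse 62 was the lowest library and Lym mouse 63 the highest. The log2 difference was -0.32 ± 0.27 (SE, 95% interval -0.94 to 0.29, limma adjusted p = 0.678), with -0.08 without Lym mouse 62 and -0.63 without Lym mouse 63. Klf4, which takes part in monocyte differentiation (chromosome 4, 55527143 to 55532466, minus strand), was at 17.9, 44.8 and 49.5 (Lym) and 29.1, 111 and 40.2 (Lin-). Lin- mouse 57 was well above the other 5, and the log2 difference of -0.54 ± 0.59 (SE, 95% interval -1.90 to 0.82, limma adjusted p = 0.758) was 0.0046 without it.

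Monocyte genes linked to Klf4 were lower in Lym in 8 of 10 tested members (median log2 difference -0.47) with none past the threshold. F13a1, a coagulation factor subunit of monocytes, was at 24928, 45787 and 34183 (Lym) and 48910, 45993 and 41783 (Lin-). Irf8, a factor of monocyte and dendritic cell fate, was at 10354, 15928 and 10615 against 10384, 12371 and 10217. An unadjusted p under 0.05 in limma was reached by 4 of the 10, against 10.2% of all genes. Groups were apart in 3 of the 10, against 15.6% of all genes tested. These were Ly6c2, Cd14 and Lyz2, chosen after their values were seen. Ly6c2 was at 961, 2608 and 3356 against 4430, 4942 and 4820, and Cd14 at 2.24, 34.7 and 26.7 against 74.1, 53.7 and 66.0. Lyz2 was at 1299, 1167 and 858 against 1537, 1809 and 1458. The 5 monocyte and macrophage markers summed to 165 to 337 CPM in Lym and 385 to 427 CPM in Lin-, with 0 markers at 0 throughout. Of these markers Ly6c2 and Cd14 had groups apart, and Cd14 was far less abundant than Ly6c2. The abundant Csf1r and Adgre1 overlapped, at 1892 ± 847 against 1935 ± 526 and at 1200 ± 227 against 1349 ± 414 (SD, n = 3 each). The part of the markers in the Klf4 values was not tested.

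Klf2, Klf4, Klf6 and Klf10 are themselves induced early by stimuli in many cells, as are the immediate early genes. Of 12 tested genes of that list 9 were higher and 3 lower in Lym (median 0.22) with none past the threshold. An unadjusted p under 0.05 in limma was reached by 4 of the 12, against 10.2% of all genes. Groups were apart in 3 with Lym higher and 1 with Lin- higher, against 15.6% of all genes tested. Without Lym mouse 87 Egr1, Btg2 and Zfp36 passed, where limma called 9.57% of all genes, which is no separate support. Egr1, chosen after its values were seen, was at 652, 493 and 338 (Lym) and 174, 224 and 299 (Lin-). Jun, its most abundant gene, was at 1631, 4576 and 2209 (Lym) and 3920, 2198 and 4180 (Lin-). Lym mouse 63 and Lin- mice 56 and 91 were thus the 3 highest libraries for Jun as for Klf2. Ier2 showed no such split, at 1691, 1945 and 1446 against 1269, 1466 and 1620. Summed, the 15 genes made up 375 to 659 CPM in Lym and 382 to 521 CPM in Lin-, with the lowest and the highest value both in Lym, and their part in the Klf values was not tested.

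**Figure D3:**
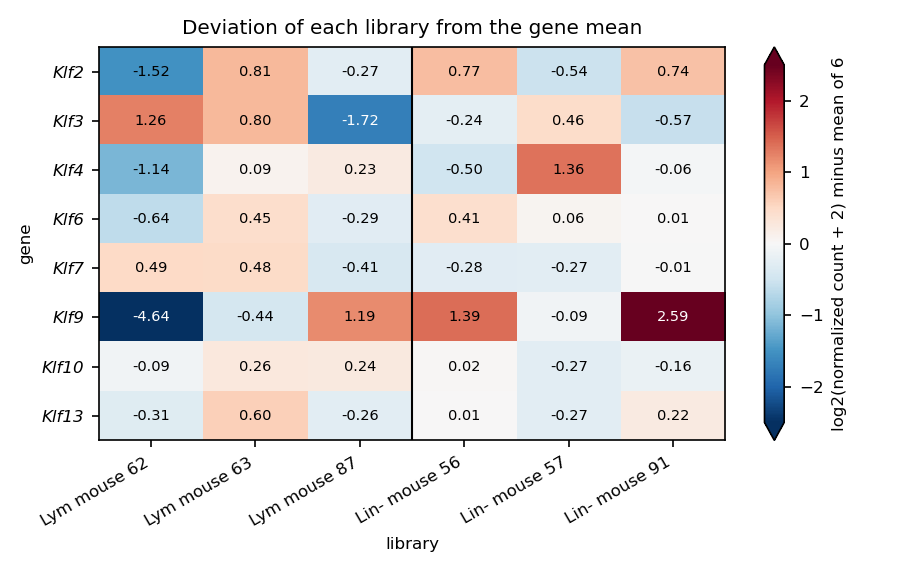
Deviation of log2(normalized count + 2) in each library from the gene's mean over 6 libraries, for the 8 tested members; the black line divides Lym from Lin-. Klf9 spans -4.64 in Lym mouse 62 to 2.59 in Lin- mouse 91, while Klf10 stays between -0.27 and 0.26.

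Upstream sequences are shown for Klf3 and Klf9, the members with the largest spread over the libraries, and for Klf7, the 1 member called without Lym mouse 87, since they differ in CACCC boxes, the sites that these proteins bind. The sequences are from RefSeq on GRCm38.p6 and show, 5′ to 3′, the part of the 250 bases ahead of the RefSeq start that comes before any exon base of the gene in that window in GENCODE. The Klf7 stretch lies in no exon of the gene but inside its GENCODE span, whose 5′ end is farther upstream. Capitals mark CACCC on either strand (GGGTG on the strand shown).
Klf3, chr5:64803271-64803387, plus strand: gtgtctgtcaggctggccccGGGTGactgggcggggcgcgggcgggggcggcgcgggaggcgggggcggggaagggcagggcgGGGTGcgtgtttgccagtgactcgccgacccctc
Klf7, chr1:64121492-64121639, minus strand: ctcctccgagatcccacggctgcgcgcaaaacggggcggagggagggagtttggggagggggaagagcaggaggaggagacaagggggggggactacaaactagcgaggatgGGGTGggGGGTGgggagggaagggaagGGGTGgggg
Klf9, chr19:23140976-23141225, plus strand: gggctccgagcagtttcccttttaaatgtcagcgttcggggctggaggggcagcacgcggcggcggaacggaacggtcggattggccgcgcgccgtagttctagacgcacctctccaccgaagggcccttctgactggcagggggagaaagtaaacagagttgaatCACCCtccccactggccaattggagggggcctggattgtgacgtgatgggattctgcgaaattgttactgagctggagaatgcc

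Over the full 250 bases, the Klf3 window held 5 CACCC matches, Klf7 3 and Klf9 1. Of 32851 RefSeq windows of that length, 52.0% held at least 1 match, 6.92% at least 3 and 0.667% at least 5. GGGCGG, the GC box on either strand, matched 6 times in the Klf3 window, where 1 match overlapped a CACCC match, and at least 6 times in 0.886% of all windows. The Klf7 window held 1 such match and that of Klf9 0. Windows were available for 9 of the 10 members, and 7 of the 9 held CACCC, the exceptions being Klf4 and Klf6. These matches describe letters only.

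Klf3, the CtBP-recruiting repressor that Klf1 activates in mouse erythroid cells (chromosome 5, 64803388 to 64832901, plus strand), was high in Lym mice 62 and 63 and lowest in Lym mouse 87. Its normalized counts were 517, 376 and 63.8 (Lym) and 182, 297 and 143 (Lin-). Both Lym mice 62 and 63 exceeded every Lin- library, and Lym mouse 87 was below every one. The log2 difference was 0.23 ± 0.70 (SE, 95% interval -1.36 to 1.82, limma adjusted p = 0.920). It was 1.15 without Lym mouse 87 (limma adjusted p = 0.054), -0.34 without Lym mouse 62 and -0.11 without Lym mouse 63, and edgeR gave 0.62 with all libraries. In the authors' deposited table it was 0.20. The opposite-strand gene Gm20033, at most at 15.7, overlaps 404 of its 11243 exon bases. The order of the 6 libraries by Klf3 was also their order by Kit and by Cd33, a myeloid sialic acid lectin, both chosen after their values were seen. Cd33 was at 1788, 1596 and 167 (Lym) and 593, 1143 and 473 (Lin-).

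Klf7, a widely expressed member known from neuronal development (chromosome 1, 64029447 to 64122282, minus strand), behaved in the same direction with a smaller spread. It was at 768, 765 and 412 (Lym) and 449, 452 and 543 (Lin-). Lym mice 62 and 63 were above every Lin- library and Lym mouse 87 again below every one. The log2 difference was 0.38 ± 0.26 (SE, 95% interval -0.21 to 0.96, limma adjusted p = 0.610), and 0.23 without either Lym mouse 62 or Lym mouse 63. Without Lym mouse 87 it was 0.68 in limma (adjusted p = 0.0353) and 0.67 in edgeR (adjusted p = 0.0405), and Klf7 was then the 1 member of 8 past the threshold, where limma called 9.57% and edgeR 8.56% of all genes. Leaving out the library that lies with the other group favours calls, so this is no separate support. Exons of the noncoding gene Gm26649 on the opposite strand cover 3196 of the 8131 exon bases of Klf7 in GENCODE M21. Gm26649 is not among the genes of the deposited table, so it has no count of its own there. With the strand setting of the counting not given, its reads may have been counted for Klf7.

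Klf9, induced in many cells by glucocorticoids and thyroid hormone (chromosome 19, 23141226 to 23168134, plus strand), was the most variable member. Its normalized counts were 0, 34.7 and 111 (Lym) and 129, 44.9 and 299 (Lin-). The value in Lym mouse 62 rests on 0 reads of 18734083, which allows up to 3.36 normalized counts, and Lin- mouse 91 had 290 reads. Lym mice 63 and 87 lay below and inside the Lin- range. The log2 difference of -2.60 ± 1.35 (SE, 95% interval -5.67 to 0.48, limma adjusted p = 0.525) depends on the pseudocount because of that 0. It ran from -3.27 with a pseudocount of 0.5 to -1.81 with one of 10, and from -3.84 without Lym mouse 87 (limma adjusted p = 0.0676) to -0.93 without Lym mouse 62 (limma adjusted p = 0.873). It was -1.68 in edgeR, -1.69 in DESeq2 on the recovered reads and -3.05 in limma-voom. The authors' deposited table gives -0.15 ± 0.17 (SE). That is far smaller in size than the DESeq2 fit here, so it should not be read on one scale with these fits. Only 0.434% of all genes tested had a larger SD over the 6 libraries than its 2.52 on the log2 scale. RNA input was 1 ng for Lym mouse 62 and 2 ng for the other libraries, and the part of this in the Klf9 value was not tested.

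The list of glucocorticoid genes, Nr3c1 and targets of the hormone, showed no common direction. Of 5 tested genes of that list, 3 were higher and 2 lower in Lym (median 0.06), with none past the threshold. The 2 lower ones, Fkbp5 and Nr3c1, had log2 differences of only -0.07 and -0.02. Zbtb16, chosen after its values were seen, was at 833, 396 and 113 (Lym) against 89.1, 141 and 48.5 (Lin-). Its log2 difference was 1.96 (limma adjusted p = 0.451). It passed without Lym mouse 87, where limma called 9.57% of all genes, which is no separate support. Fkbp5, a chaperone induced by the hormone, was at 2891, 6090 and 2981 (Lym) and 4356, 2886 and 4839 (Lin-), which places Lym mouse 63 highest where Klf9 was next to its lowest value. Nr3c1, the glucocorticoid receptor, was at 2671, 2637 and 2038 against 2789, 2292 and 2337, with Lym mouse 87 lowest and the other 5 libraries close together.

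Klf1 (chromosome 8, 84901928 to 84905295, plus strand), the erythroid activator of beta-globin, was too low to be tested. So was Klf12 (chromosome 14, 99870632 to 100284679, minus strand), a repressor of the AP-2 alpha gene. Read numbers of Klf1 were 6, 3 and 3 (Lym) and 1, 19 and 4 reads (Lin-), so that Lin- mouse 57 alone was well above the floor. Klf12 had 1, 11 and 0 reads against 0, 1 and 2, and exceeded 3 reads in Lym mouse 63 only. Of the 17 genes of the Klf1 target list in the table, 7 had no read in any library, among them Epor, Hba-a1 and Hbb-bs, and 3 were tested. Tfrc, the transferrin receptor of all dividing cells, was at 1992, 1908 and 1316 (Lym) against 1187, 1494 and 992 (Lin-), and E2f2, a cell cycle factor, at 367, 351 and 507 against 454, 319 and 498. Icam4, an adhesion molecule of red cells chosen after its values were seen, was at 78.5, 26.9 and 11.4 (Lym) against 20.3, 5.28 and 18.6 (Lin-). None of the 3 passed the threshold (limma unadjusted p under 0.05 in 1), and 2 of them had fitted differences above 0 (median 0.50). Without Lym mouse 87 Tfrc passed, at a log2 difference of 0.69 (limma adjusted p = 0.038), where limma called 9.57% of all genes. As for Klf7, this is no separate support.

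**Figure D4:**
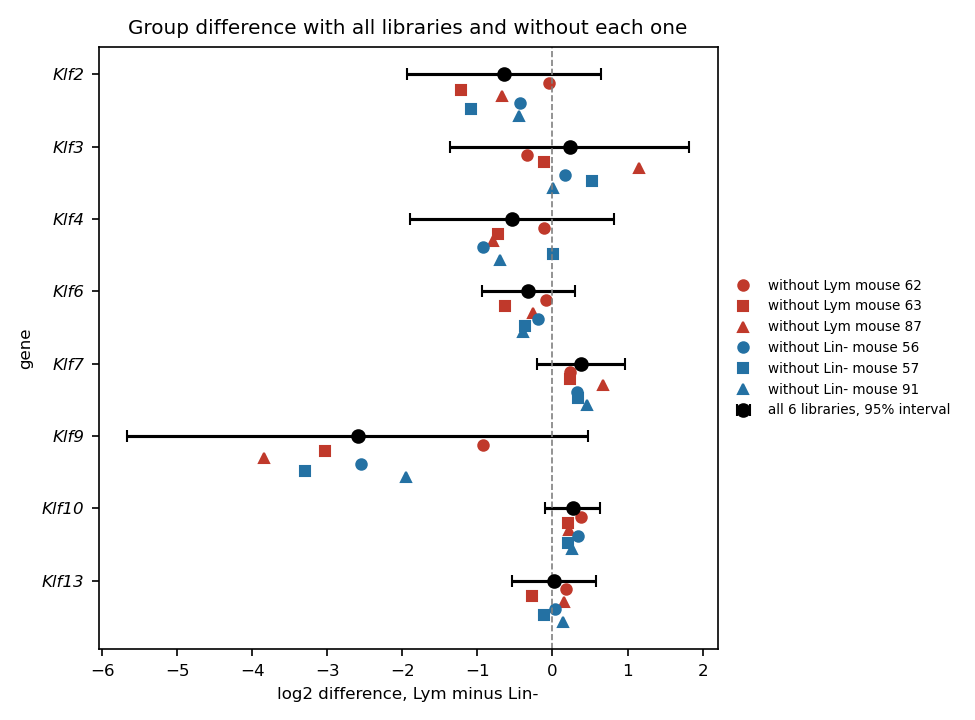
Log2 difference (Lym minus Lin-) of the 8 tested members with its 95% interval over all 6 libraries (black) and without each library in turn (coloured symbols below it). All 8 intervals include 0, and the points for Klf3 run from -0.34 to 1.15.

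Among the 8 tested members Lym mouse 62 was the lowest of the 6 libraries in 5 members (Klf2, Klf4, Klf6, Klf9 and Klf13), where it was lowest in 24.3% of all genes tested, and Lym mouse 63 was the highest in 4 (Klf2, Klf6, Klf10 and Klf13), where it was highest in 15.2%. Lym mouse 62 was also the highest in 2 (Klf3 and Klf7, against 26.6% of all genes), and Lym mouse 87 was the lowest in the same 2 (against 14.7%).

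Klf genes outside the 10 members and the related Sp factors, which bind the same GC boxes, showed no call either. Of 7 further Klf genes 4 were tested, 2 higher and 2 lower in Lym (median -0.21). Klf16 was at 338, 274 and 400.2 (Lym) and 356, 281 and 328 (Lin-), and Klf11, which is closely related to Klf10, at 114, 154 and 374 against 251, 164 and 440.4. Klf8, a CtBP-recruiting repressor, was at 165 ± 62.7 against 119 ± 18.9 and Klf5 at 29.9 ± 30.1 against 36.4 ± 12.0 (SD, n = 3 each), while Klf14, Klf15 and Klf17 had at most 1 read in any library. Of 9 Sp genes 5 were tested, 3 higher and 2 lower (median 0.04). Sp1 was at 6110, 5071 and 5195 against 5022, 4386 and 4892, and Sp3 at 3329 ± 300 against 3397 ± 133.

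Among the cofactors of the family the acetyltransferase genes Crebbp and Ep300, which serve many transcription factors, had Lym values that all lay above the Lin- values, without passing the limma threshold. Crebbp was at 11370, 11785 and 9299.5 (Lym) and 7199.6, 7329 and 7209.6 (Lin-), a log2 difference of 0.57 ± 0.12 (SE, limma adjusted p = 0.420). DESeq2, which called 1.39% of 16268 genes, gave it an adjusted p of 0.0341. Ep300 was at 10306, 10423 and 8142 against 7414, 7542 and 7279, a log2 difference of 0.37 (limma adjusted p = 0.446). Both passed the threshold in limma with library weights (adjusted p = 0.022 for Crebbp and 0.0387 for Ep300), where 4.62% of all genes were called. They also passed without Lym mouse 87 in limma (0.00644 and 0.0197) and edgeR (0.0086 and 0.0236), which then called 9.57% and 8.56% of all genes. The library weights gave Lym mouse 87 the lowest weight (0.361). As leaving out the library that lies with the other group favours calls, these settings are no separate support. Over all alternatives the adjusted p ran up to 0.857 for each. Of 13 cofactor genes tested 8 were higher and 5 lower (median 0.03), and the corepressor genes Ctbp1 and Sin3a, chosen after their values were seen, were at 3641 ± 281 against 3559 ± 340 and at 5177 ± 193 against 4327 ± 169, the latter with groups apart. Ubiquitin ligases that act on Klf proteins were higher in 7 of 8 (median 0.17), with none past the threshold. Itch was at 3390 ± 700 against 3105 ± 84.3 and Smurf2 at 1106 ± 272 against 988 ± 63.1.

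Reads of 38 bases separate the family members from each other. Of the windows of that length in their GENCODE transcripts, Klf3 and Klf12 shared 4 with each other and the other members shared 0 with any Klf gene. Windows shared with any other gene made up 38.5% for Klf7, all with Gm26649, 6.46% for Klf12, 4.10% for Klf3, 1.08% for Klf4 and 0.467% for Klf13, and 0 for the other 5.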

How the data were processed

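Total RNA of bone marrow cells from 6 mice was sequenced. A stranded low-input kit was used, per the labels' protocols, on 2 ng of RNA a library (Lym mouse 62 had 1 ng), with 12 PCR cycles and 38-base reads. Reads were handled with featureCounts 1.6.4, STAR 2.6.1d, Trim Galore 0.6.4, bcl2fastq and DESeq2 by the authors, on GRCm38.p6, per the submitters' processing notes, while the strand setting of the counting, the annotation release and the DESeq2 version are not given in the sources used here. Each deposited library value is a signal: the authors divided the gene's count by the library's size factor. 100% of these values below 10000 reads were whole multiples of their library's step (tolerance 0.01), so whole reads were recovered. Gene length, a log2 fold change, its error, a Wald score and p-values (raw and adjusted) stand beside it in the authors' table, per the file headers. The authors' log2 values count Lin- minus Lym and had their sign turned here. For each of the 8 tested members they were smaller in size than those of the DESeq2 fit here, most of all for Klf9 (-0.15 against -1.69). They are thus not on one scale with it. TPM and CPM were computed from recovered reads and the table's gene lengths.

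The 14273 genes that reached 10 normalized counts in 3 or more libraries were fitted on the log2(value + 2) scale with limma 3.58.1 (trend option, R 4.3.3), with p-values adjusted by Benjamini-Hochberg over all of them and called at 0.05. edgeR 4.0.16 (TMM), DESeq2 1.42.0 and limma-voom on the recovered reads, TMM scaling, other filters and pseudocounts, library weights and leaving out each mouse were alternatives. edgeR without Lym mouse 87 was added after the data were seen. The limma, edgeR, DESeq2 and limma-voom fits were first tested on simulated counts, and the other settings were not. Exons came from GENCODE M21 and promoter sequences from RefSeq (GRCm38.p6). The 10 members, 11 lists of pathway genes and 11 marker lists were chosen with earlier results of these data known. Named from each list were its called genes or else its 2 most abundant tested genes, list genes among the authors' calls (there were 0), all Klf genes, and the 3 genes closest to the most variable member. Some genes under this rule are left out of the text. Genes named outside it should be taken as chosen after their values were seen, and not all of them are marked so. Unmarked ones include marker genes such as Csf1r and Adgre1.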

Additional observations from a re-analysis of the deposited data

How the results depend on the processing

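Over all genes the count of limma calls was 0 and became 226 with DESeq2, 5 without the filter on low values, 1 with a pseudocount of 10, 660 with library weights, 0 to 1366 without single mice (1366 without Lym mouse 87, 1 without Lin- mouse 91) and 1222 in edgeR without Lym mouse 87. For the 10 members it stayed at 0 in every setting tried except without Lym mouse 87, where it was 1 in limma and 1 in edgeR (range without single mice 0 to 1). Over the pathway genes it was 0 to 15, with 15 without Lym mouse 87.

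Signs of member differences turned in 6 of 127 alternative fits, in Klf3, Klf4, Klf6 and Klf13. Under library weights the sign turned for Klf6 (0.042), Klf16 (-0.12), Sp3 (0.0073), Jun (0.0025), Fkbp5 (0.25) and Nr3c1 (0.076). Without single mice the log2 difference ran from -0.34 to 1.15 for Klf3, -0.93 to 0.0046 for Klf4, -0.27 to 0.18 for Klf13, -0.072 to 0.20 for Klf16, -0.081 to 0.044 for Sp3, -0.028 to 0.34 for Smurf2, -0.24 to 0.082 for E2f2, -0.063 to 0.25 for Irf8, -0.0048 to 0.43 for Tgfbr1, -0.42 to 0.12 for Fkbp5 and -0.087 to 0.11 for Nr3c1. In edgeR without Lym mouse 87 it was -0.073 for Klf16, 0.042 for Sp3, 0.16 for Fkbp5 and 0.10 for Nr3c1. The cause was not tested. No paired analysis was possible because the mouse numbers of the groups are not shared. Depth limits Klf1 and Klf12, at or near 3 reads in most libraries.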

Other observations

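The genes closest to Klf9 over the 6 libraries, by the root mean square difference of centred log2 values, included Slc22a15 (0.60) and Pvt1 (0.68), and both had their lowest value in Lym mouse 62. Slc22a15, a solute carrier, was at 0, 6.71 and 56.2 normalized counts in Lym mice 62, 63 and 87 and at 59.99, 22.9 and 160 in Lin- mice 56, 57 and 91. Pvt1, a noncoding gene beside Myc, was at 7.85, 80.6 and 241 against 228, 112 and 299. These genes were picked as the nearest of 14273 over 6 values, which makes close matches likely, and carry no test.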
